A study of Anolis carolinensis with 2 samples.

Results

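Genes with exactly 2 annotated transcripts of clearly unequal length were examined in 2 whole embryos of the green anole lizard, Anolis carolinensis, staged at 28 and at 38 somite pairs. Somites form as paired blocks of mesoderm laid down in sequence along the body axis, so their number stages an embryo. The labels name no sex, strain, treatment or allele for either embryo, and the design text places collection at 0 to 1 days after laying. Each stage was a single library, so stage, embryo and library cannot be told apart, no value has a replicate error, and no p-value was computed. Library totals of 13859432 fragments at 28 somite pairs and 12908649 at 38 were recovered from the deposited values. They are taken as the mapped fragments, which assumes that the authors scaled FPKM to all of these. A gene was included when it was the only gene of its locus, the locus held 2 transcripts whose lengths differed by at least 200 bases, and it did not lie on a linkage group. This gave 189 of 21085 genes, from 797 that were alone in a locus with 2 transcripts. Another 3 genes met the length condition but lay on linkage groups.

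A single gene can make several transcripts by skipping or including exons, by starting at another promoter or by ending at another polyadenylation site. Such choices can add or remove part of the encoded protein, and they are known to change in the course of embryonic development. Where a long and a short form have exons in common, a fragment from there fits both, and the program that quantifies them divides such fragments by likelihood. A share of one form is therefore an estimate.

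Levels are FPKM, fragment numbers corrected for the length of the transcript and for the mapped fragments of the library. The share of the longer form is its FPKM over the summed FPKM of both forms, and the form with the larger FPKM is said to lead. Of the 189 genes, 55 were listed at 0 in both libraries and 74 had values above 0 but under 5 FPKM in both. The other 60 reached 5 FPKM in at least 1 library, 49 of them in both, 4 at 28 somite pairs alone and 7 at 38 alone. These 60 genes are described below. The files give identifiers without gene names and 0 of them were found in the RefSeq gene table of the species, so genes are given by position on AnoCar2.0 (1-based) and their functions are not stated. For the same reason the labelled tissue could not be checked against marker genes.

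In 57 of the 60 genes both transcript lengths were multiples of 3, as in models that hold the coding part alone. The shorter form had a median length of 1524 bases and the longer 2415, and the difference ran from 207 to 11331 bases with a median of 756. The longer form was 1.05 to 17.7 times as long as the shorter. In 30 genes the forms shared 1 genomic end, in 3 they shared both, in 17 the shorter lay inside the longer with no end in common, and in 10 the shorter reached beyond the longer on at least one side with no end in common. The genes lay on chromosomes in 38 cases and on unplaced scaffolds in 22. The fragments of a gene ranged from 28 to 4646 at 28 somite pairs (median 438.5) and from 52 to 2958 at 38 (median 312).

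The longer form led in 40 of the 60 genes at 28 somite pairs and in 39 at 38. Among all expressed 2-transcript genes of unequal lengths, members included, it led in 47.1% at 28 somite pairs and 44.6% at 38. The median share of the longer form was 88.9% at 28 somite pairs, with quartiles at 37.3% and 99.2%. At 38 the median was 81.9%, with quartiles at 35.1% and 97.8%. In 22 genes the longer form held 90% or more in both libraries, in 12 of these 99% or more, and in only 4 genes did it hold 10% or less in both. In 20 genes both forms held more than 10% in both libraries, and in the other 14 the share crossed 10% or 90% between the libraries.

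**Figure D1:**
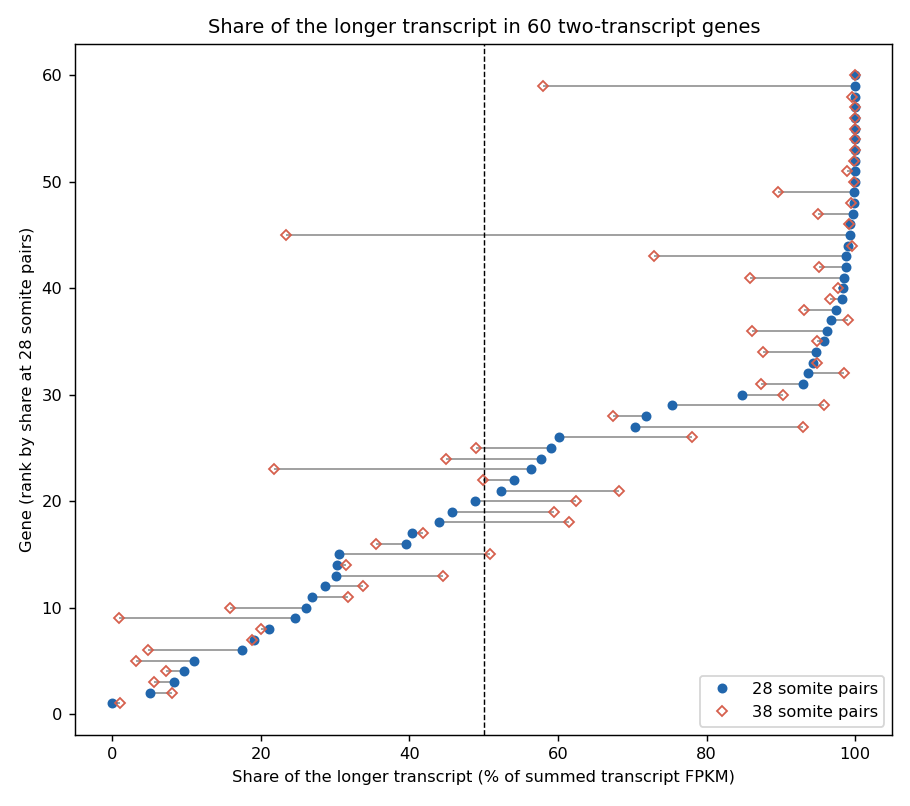
Each row is 1 of the 60 genes, ordered by the share of the longer transcript at 28 somite pairs (circles), with the share at 38 (diamonds) on the same row; the x axis is percent of summed transcript FPKM and the dashed line marks 50%. The upper rows crowd near 100% in both libraries, and 9 genes cross the dashed line.

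The comparison with genes whose forms differed by under 200 bases, but were not equal, is a description only, since no test across libraries was possible. Of those genes 179 were expressed and had a share at 28 somite pairs, where the longer form led in 72 (40.2%). At 38 the share was defined in 177 and the longer form led in 67 (37.9%), and the median shares were 29.2% and 27.7%. The longer form held 10% or less in both libraries in 60 of the 177 with a share in both, against 4 of the 60 genes with large differences. The numbers of fragments also differed between the groups, with medians of 438.5 and 312 per gene for large differences. Over all 194 genes with smaller differences, 15 of equal length included, the medians were 251 and 229.5, and the part of depth in the shares was not tested. The arrangement of the forms differed as well. Both ends were shared in 84 of these 194 genes and in 3 of the 60. The shorter form lay inside the longer with no end in common in 4 of the 194 and in 17 of the 60. The part of arrangement was not tested either.

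**Figure D2:**
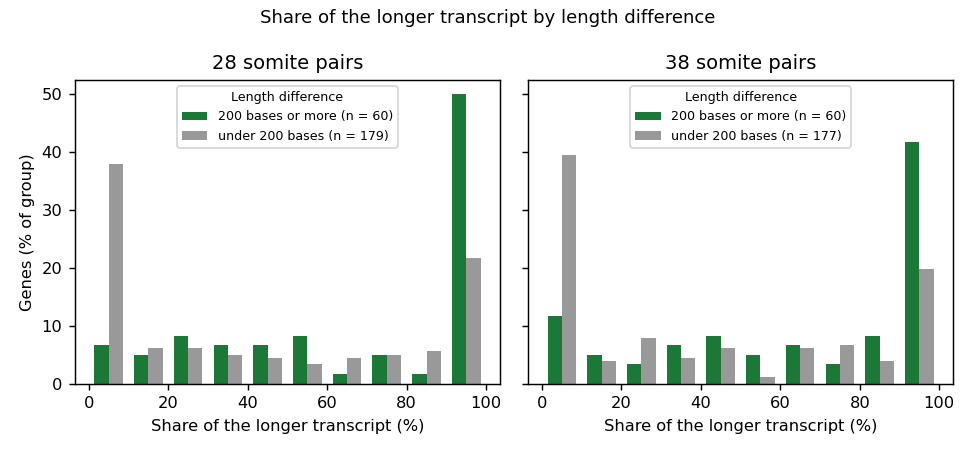
Percent of genes (y axis) in 10-point classes of the longer transcript's share (x axis), at 28 somite pairs on the left and 38 on the right, for length differences of 200 bases or more (dark bars) and under 200 bases, equal lengths left out (grey bars). The class of 90% to 100% is the tallest for large differences, and the class of 0% to 10% is the tallest for smaller ones.

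Within the 60 genes the median share was higher for the smaller length differences. The lead and the lower quartile followed that order at 28 somite pairs but not at 38. In the 19 genes with differences of under 500 bases the median share of the longer form was 97.4% at 28 somite pairs and 90.3% at 38, and in the 41 genes with 500 bases or more it was 70.3% and 68.2%. The longer form led at 28 in 14 of the 19 genes and 26 of the 41, with lower quartiles of its share at 41.1% and 39.5%. At 38 it led in 12 of the 19 and 27 of the 41, with lower quartiles at 15.7% and 41.9%. Both forms held more than 10% in both libraries in 19 of the 41 genes and in 1 of the 19. By arrangement, the median at 28 and 38 somite pairs was 93.3% and 82.0% where 1 end was shared, and 94.3% and 87.6% where the shorter form lay inside the longer. It was 49.0% and 54.2% in the 10 genes whose shorter form reached beyond the longer.

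Which form leads depends on whether FPKM or fragments are counted, because a longer transcript gives more fragments per molecule. By fragments the longer form held most in 47 genes in each library. The shorter form led by FPKM while the longer held most fragments in 7 genes at 28 somite pairs and in 8 at 38. An example is the gene on scaffold GL343519.1 (286535 to 338913), with forms of 501 and 8871 bases. The short form had 5.46 FPKM at 28 somite pairs and 5.0 at 38, and the long form 3.57 and 2.75. By FPKM the long form's share was 39.5% and 35.5%, and by fragments it was 92.5% and 91.2%.

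Shares were close between the libraries for most genes. The median absolute difference was 4.40 percentage points, 16 genes differed by less than 1 point and 34 by less than 5. Over all expressed 2-transcript genes of unequal lengths the median was 3.99 points. Of the 240 with a share in both libraries, 73 differed by less than 1 point and 137 by less than 5. The 60 genes thus lay near the background. Many shares lay near the limits of the scale in both libraries. In 22 genes the longer form held 90% or more in both libraries and in 4 it held 10% or less. Genes chosen that way can differ by at most 10 points by construction. The part of these limits in the closeness was not tested. The share was higher at 38 somite pairs in 23 genes and higher at 28 in 37, with a median difference of -0.28 points. The 37 include 1 gene on chromosome 5 (86777841 to 86785537) that was at 100% in both libraries. It was counted there only through rounding. Among all expressed 2-transcript genes of unequal lengths, members included, the share was higher at 38 in 116 and at 28 in 123, that gene included. A difference of 20 points or more was found in 8 of the 60 genes (13.3%). Over all expressed 2-transcript genes of unequal lengths it was found in 16.25%, so the count lay near the background. The share was that much higher at 38 in 3 genes and at 28 in 5, where the background was 6.67% and 9.58%. The leading form differed in 9 genes (15.0%), against 11.0% of all expressed 2-transcript genes. Counted in fragments the lead differed in 6 of the 60 genes, not all of them among the 9. No background by fragments is given here.

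**Figure D3:**
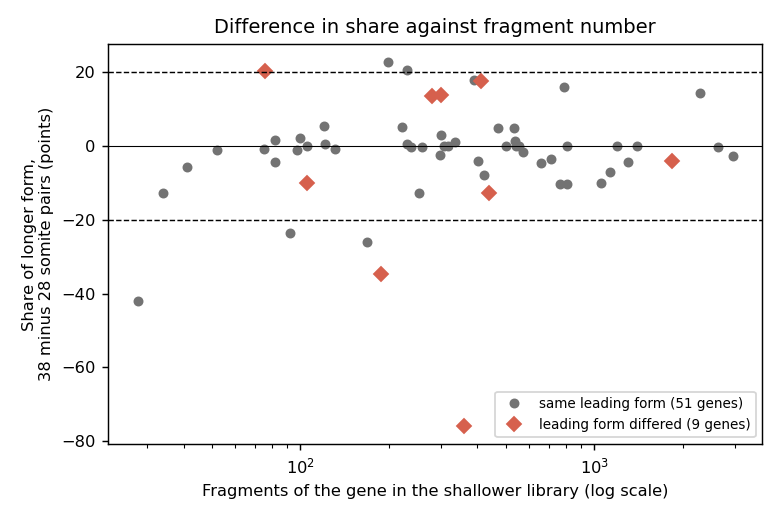
Difference in the longer transcript's share, 38 minus 28 somite pairs in percentage points (y axis), against the gene's fragments in the library where it had fewer (x axis, log scale), for the 60 genes; diamonds mark the 9 genes whose leading form differed and dashed lines mark 20 points. Of the 8 genes past the dashed lines, 5 had at least 100 fragments in both libraries.

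The largest exchange was at ENSACAG00000016911 on scaffold GL343329.1 (1087139 to 1105908). Its forms had 2430 and 2223 bases and shared the end at 1105908, and the shorter began 3078 bases further in. At 28 somite pairs the longer form had 24.5 FPKM and the shorter 0.19, from 844 fragments of the gene. At 38 the longer had 2.79 FPKM and the shorter 9.16, from 361 fragments. The longer form thus led at 28 with 99.2% and trailed at 38 with 23.4%. Counted in fragments its share was 99.3% at 28 (Wilson 95% interval 98.5 to 99.7) and 24.9% at 38 (20.7 to 29.6). These intervals, like all intervals of fragments here, cover counting error only and not the division of shared fragments between the forms.

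The deposited tables also give an interval for each transcript's FPKM. At this gene the longer form's interval was 14.6 to 34.4 at 28 somite pairs and 0 to 6.81 at 38, so the libraries did not overlap. The shorter form's interval was 0 to 1.29 at 28 and 2.64 to 15.7 at 38, again without overlap. Within the library at 38 somite pairs the intervals of the forms did overlap, and at 28 they did not. The gene as a whole had 24.7 FPKM at 28 and 11.95 at 38, 2.07 times as much at 28.

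The other genes whose lead differed did so by smaller margins. On scaffold GL343802.1 (84699 to 104349) the form of 4179 bases had 4.26 FPKM at 28 somite pairs and 0.99 at 38, while that of 2514 bases had 3.31 and 3.59. The longer form's share was 56.3% at 28 and 21.7% at 38, from 402 and 188 fragments, and it was the longer form that differed between the libraries. On chromosome 1 (192610699 to 192630952) the form of 2001 bases had 1.5 and 2.54 FPKM and that of 1062 bases 3.41 and 2.46, so the share was 30.5% and 50.8%, from only 76 and 84 fragments. On chromosome 6 (80526222 to 80553001) both forms were lower at 38. The form of 5319 bases had 6.95 FPKM at 28 and 2.41 at 38, and that of 3525 bases had 7.29 and 1.45, which moved the longer form's share from 48.8% to 62.4%. In fragments the longer form of the gene on chromosome 6 held 58.1% and 70.7%, so by that measure it led in both libraries. These 3 genes were under 5 FPKM in 1 library, and the first 2 were singled out after their values were seen.

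In the other 5 genes with a different lead, all at 5 FPKM or more in both libraries, the share differed by 4.17 to 17.5 points. On scaffold GL343659.1 (264386 to 288607) the form of 4227 bases had 4.57 and 5.98 FPKM and that of 3018 bases 5.81 and 3.74, which gave the longer form 44.0% at 28 somite pairs and 61.5% at 38. On chromosome 4 (76804904 to 76819620) the form of 2117 bases had 9.48 and 10.6 FPKM and that of 671 bases 11.2 and 7.22, with 45.7% and 59.4% for the longer. In both genes the shorter form was lower at 38 while the longer was slightly higher. On chromosome 2 (93774966 to 93801442) the form of 3348 bases had 7.88 and 4.34 FPKM and that of 3048 bases 5.78 and 5.31, so the longer form's share was 57.7% and 45.0%. On scaffold GL343375.1 (151932 to 188280) the form of 1458 bases had 7.26 and 4.05 FPKM and that of 711 bases 5.04 and 4.23, with 59.0% and 48.9%. Here the longer form carried most of the difference. In fragments the longer form held most in both libraries on GL343659.1 (53.6% and 70.1%), chromosome 4 (75.5% and 84.3%) and GL343375.1 (75.4% and 67.5%). On chromosome 2 it held 59.6% and 46.9% of fragments, so there the lead differed by both measures.

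The remaining one was the gene on scaffold GL343257.1 (1801780 to 1812871), with forms of 2694 and 1527 bases. The longer form had 50.3 FPKM at 28 somite pairs and 36.3 at 38, and the shorter 42.7 and 36.4. The longer form's share was 54.1% and 49.9%, so the forms were near parity by FPKM in both libraries. The change of lead was a matter of 4.17 points. In fragments the longer form held 68.4% and 64.7%, so by that measure it led in both.

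**Figure D4:**
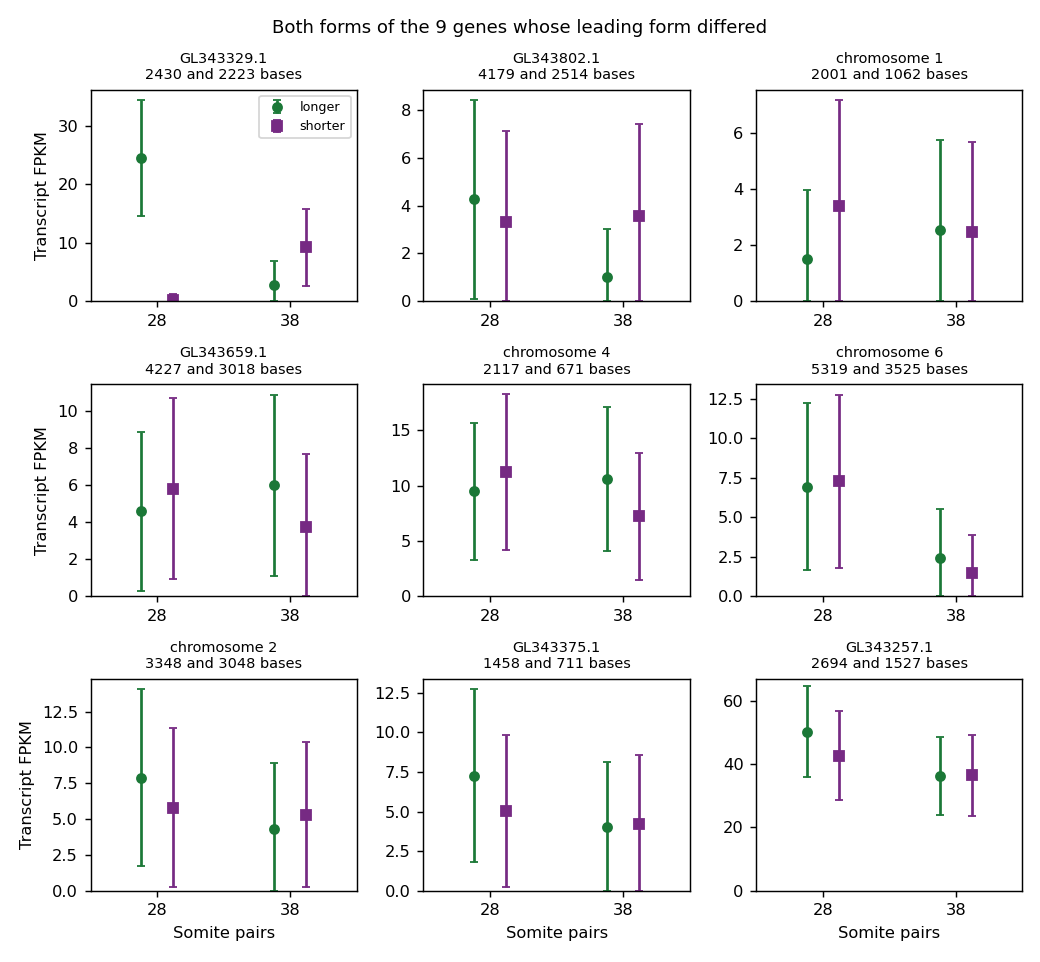
FPKM of the longer (circles) and shorter (squares) transcript at 28 and 38 somite pairs in the 9 genes whose leading form differed, in order of the difference in share; bars are the intervals deposited by the authors, and each panel has its own linear y axis from 0. In none of the 9 panels are the bars of the forms apart in both libraries.

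The deposited intervals can be set beside these differences, though 53.4% of those at 28 somite pairs and 47.1% at 38 depend on the FPKM alone. The intervals of the forms did not overlap in 32 of the 60 genes at 28 somite pairs and in 28 at 38, against 56.4% and 49.4% of all expressed 2-transcript genes. The longer form was the higher in 25 of the 32 and in 22 of the 28. Over all expressed 2-transcript genes of unequal lengths, members included, it was the higher in 63 of 140 at 28 and 56 of 122 at 38. Among the 9 genes with a different lead, 0 had the forms apart in both libraries. Of 71 single forms at 5 FPKM or more in a library, 4 had intervals that did not overlap between the libraries, against 8.23% of all transcripts at that level. They were both forms at the gene on GL343329.1, and 1 form each at 2 abundant genes of chromosome 1 described below.

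Among genes whose share was higher at 38 somite pairs, the largest difference with 5 FPKM or more in both libraries was at ENSACAG00000014335 on chromosome 4 (139073524 to 139165302). Its form of 1710 bases had 13.5 FPKM at 28 and 10.3 at 38, and the form of 1206 bases inside it had 5.70 and 0.78. The share of the longer was 70.3% and 93.0%, and in fragments 78.4% (73.8 to 82.5, n = 339) and 95.3% (91.6 to 97.6, n = 198). ENSACAG00000023480 on chromosome 2 (170627779 to 170630763) had the same pattern. Its form of 2679 bases had 8.46 and 7.18 FPKM and that of 1788 bases 2.77 and 0.32, so the longer form's share was 75.3% and 95.7%. In both genes the longer form differed by less than the shorter, which was close to 0 at 38. The deposited intervals of these 2 shorter forms overlapped between the libraries, at 0.74 to 10.7 and 0 to 2.64 in the first gene. In the second they were 0 to 6.72 and 0 to 1.83.

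Other genes in that direction with 5 FPKM or more in both libraries differed by under 20 points. The gene on chromosome 1 (39581608 to 39637451) had 60.1% at 28 somite pairs and 78.0% at 38 in its form of 3705 bases, as the form of 1761 bases had 4.59 and 2.14 FPKM. Another on chromosome 1 (41056654 to 41078608) had 52.4% and 68.2% in its form of 3213 bases, from 851 and 788 fragments. A gene on chromosome 4 (156397473 to 156449646) had 84.8% and 90.3% from 141 and 120 fragments. In each of these the longer form led in both libraries.

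Among genes whose share was higher at 28 somite pairs, ENSACAG00000011645 on chromosome 1 (140309942 to 140319970) came next after the exchange on GL343329.1 when only genes at 5 FPKM or more in both libraries are ordered. Its form of 2280 bases had 6.35 FPKM at 28 and 4.86 at 38, and the form of 2022 bases had 0.08 and 1.81. The longer form held 98.8% and 72.9%, and 98.95% (96.0 to 99.7, n = 180) and 75.3% (68.1 to 81.1, n = 169) of fragments. On scaffold GL343294.1 (1579587 to 1614728) the shorter form led in both libraries and more so at 38. There the form of 1164 bases had 1.82 and 0.11 FPKM and that of 888 bases 5.59 and 12.8, so the longer held 24.6% and 0.88%, from 92 and 142 fragments. A gene on chromosome 3 (176186135 to 176196848), singled out after its values were seen, had its form of 480 bases listed at 0 at 28 somite pairs and at 2.38 FPKM at 38. Its form of 1083 bases had 1.92 and 3.29 FPKM. The share of 100% at 28 rests on 28 fragments and that of 58.0% at 38 on 57, the fewest of any of the 8 genes with a difference of 20 points.

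A minor short form beside a dominant long one was higher at 38 in 3 more of the 8 genes named for that direction. This is no full count, since other genes with smaller differences in share had the same pattern. The deposited intervals of the 3 short forms described next overlapped between the libraries. On chromosome 5 (52596886 to 52617647) the form of 1293 bases had 0.12 FPKM at 28 somite pairs and 1.17 at 38, and the form of 3003 bases held 98.5% and 85.8%. On scaffold GL343239.1 (1900254 to 1921894), where both ends were shared, the form of 3645 bases had 0.06 and 1.47 FPKM and the form of 4365 bases 30.4 and 12.6. On chromosome 1 (32797942 to 32815043) the form of 1455 bases had 1.52 and 4.89 FPKM, and the form of 2883 bases held 96.2% and 86.0%. In a gene on chromosome 6 (15427654 to 15444115), also with both ends shared, the shorter form led instead. Its form of 1968 bases had 24.2 and 23.9 FPKM and that of 3357 bases 8.54 and 4.51, so the longer form held 26.1% and 15.9%.

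The 6 most abundant genes held the same order of forms in both libraries, apart from the one on GL343257.1 near parity. The highest was on scaffold GL343235.1 (2331069 to 2354574), where the shorter form led. Its form of 2168 bases had 97.6 FPKM at 28 somite pairs and 84.7 at 38, and that of 2576 bases 8.90 and 5.06. On chromosome 1 (231297886 to 231326981) the form of 4341 bases had 82.8 and 49.97 FPKM, over 99% in both libraries, and its deposited intervals, 64.6 to 101.05 and 35.8 to 64.1, did not overlap. On scaffold GL343199.1 (3790717 to 3834155) the form of 1740 bases had 66.7 and 58.3 FPKM and the form of 498 bases inside it 0.01 and 0.02. On chromosome 2 (41922399 to 41939905) the shorter form, of 561 bases, had 43.2 and 29.8 FPKM and the longer, of 2400 bases, 18.7 and 13.7, so the longer held 30.2% and 31.5%. The share in these 4 genes differed by at most 2.72 points.

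The abundant gene on chromosome 1 (61418599 to 61440330) differed mainly in its shorter form. The form of 3558 bases had 64.5 FPKM at 28 somite pairs (deposited interval 48.1 to 80.9) and 26.2 at 38 (15.6 to 36.8), and that of 5103 bases 27.8 and 21.0. These came from 4543 and 2291 fragments of the gene. The shorter form led in both libraries by FPKM, and the longer form's share was 30.1% and 44.6%. In fragments the longer form held 37.5% (36.1 to 38.9) at 28 and 52.8% (50.8 to 54.9) at 38, so by that measure the lead differed.

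In the 5 genes with the largest length difference the lead was the same in both libraries. The largest, 11331 bases, was on chromosome 1 (39700213 to 39803463), with forms of 12855 and 1524 bases. The longer had 7.63 FPKM in both libraries and the shorter 0.43 at 28 somite pairs and 1.08 at 38. Next was the gene on GL343519.1 already described. On scaffold GL343409.1 (6161 to 43676) the form of 4818 bases had 34.0 and 22.8 FPKM and held 99.9% in both libraries. On scaffold GL343208.1 (3044269 to 3092814) the form of 3728 bases held 93.7% and 98.5% against one of 405 bases. On chromosome 3 (54036220 to 54074342) the form of 4599 bases had 34.7 and 20.5 FPKM and that of 1503 bases 13.6 and 9.92.

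Near the threshold of 200 bases, the 3 genes just inside had differences of 207, 210 and 213 bases. The first was the exchange on GL343329.1. The second, on chromosome 5 (19036435 to 19094766), had longer shares of 99.3% and 99.1%, and the third, on scaffold GL343706.1 (6454 to 16554), had 98.4% and 97.6%. Just outside, with differences of 198, 189 and 189 bases, the longer form held 89.1% and 88.1% on scaffold GL343551.1 (263207 to 276749), 0.012% and 0.063% on chromosome 3 (19130125 to 19149747), and 6.36% and 4.70% on chromosome 4 (37884322 to 37893642).

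Summed over both forms, the 60 genes differed between the libraries by about as much as all genes did. The median difference in log2(FPKM + 1), 38 minus 28 somite pairs, was -0.20 for the 60 genes and -0.22 for all 7003 genes at 5 FPKM or more in a library. This scale understates differences of low genes. The sign of the members' median rests on the scaling, and it was 0.01 with the median of all expressed genes set to 0. On log2(FPKM + 1), 1 of the 60 genes was at least 2-fold higher at 38, where the background was 4.31%. On the same scale 4 were at least 2-fold higher at 28, where it was 6.63%. The exchanged gene on GL343329.1, at -0.99, fell just short. With a pseudocount of 0.1 FPKM in place of 1, the counts were 2 and 5. A gene under 5 FPKM in 1 library passed the minimum only through the other, where it was high, and genes were picked below for their difference, so their ratios and intervals describe these libraries and support no difference between stages. In whole embryos, fewer cells of a type and less RNA per cell cannot be told apart.

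**Figure D5:**
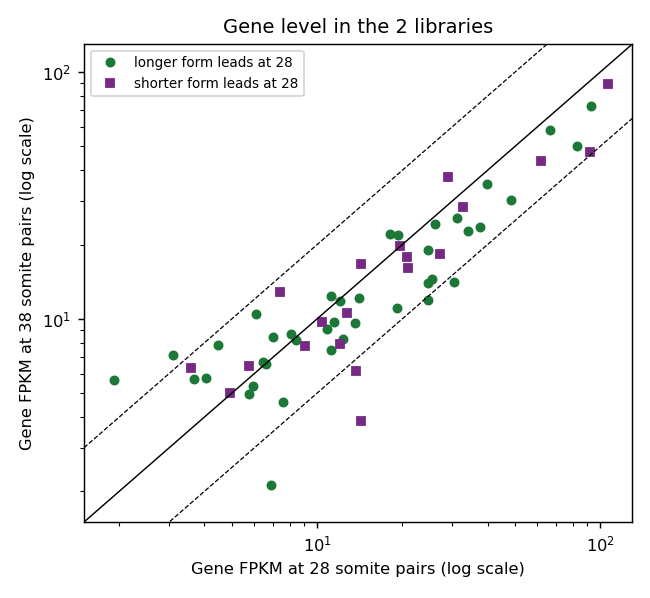
Summed FPKM of each of the 60 genes at 38 somite pairs (y axis) against 28 (x axis), both log scales, with circles where the longer form led at 28 and squares where the shorter did; the solid line marks equal FPKM and the dashed lines 2-fold differences in FPKM without a pseudocount. Of the 60 genes, 41 (68.3%) were higher at 28 and 19 at 38, and 67.3% of all 7003 genes at 5 FPKM or more in a library were higher at 28.

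Forms were also taken singly, on log2(FPKM + 1). Of the 71 at 5 FPKM or more in a library, 2 had at least 2-fold more at 38 and 7 at 28. All transcripts at that level gave 4.46% and 6.97% on this scale. Both of the 2 were shorter forms, and the 7 were 4 longer and 3 shorter forms. These counts hold on that scale only, and counts of forms by FPKM without a pseudocount are not given here.

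The gene on chromosome 6 (80526222 to 80553001) had the largest difference, with 14.2 FPKM from 1037 fragments at 28 somite pairs and 3.86 from 280 at 38, and passed only at 28. Per mapped fragment this was 3.45 times as much at 28 (exact 95% counting interval 3.02 to 3.95). A gene on chromosome 2 (99854456 to 100048351) had 6.88 and 2.11 FPKM, from 182 and 52 fragments, so it passed the minimum only at 28. Per mapped fragment it had 3.26 times as much there (2.38 to 4.53). Its form of 2175 bases held over 98% in both libraries. The gene on GL343239.1 (1900254 to 1921894) had 30.4 and 14.1 FPKM, 2.17 times as much at 28 (1.99 to 2.36). The last of the 4, on scaffold GL343883.1 (31595 to 44692), had 13.7 and 6.15 FPKM from 233 and 97 fragments, 2.24 times as much (1.76 to 2.87), while the longer form's share was 21.1% and 19.96%.

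In the other direction the gene past 2-fold was the one on chromosome 3 (176186135 to 176196848), with 1.92 FPKM at 28 somite pairs and 5.67 at 38, so it passed the minimum only at 38. Per mapped fragment it had 2.19 times as much there (1.37 to 3.57). Among genes with at least 100 fragments in a library, the largest difference that way was on chromosome 1 (121579937 to 121590679). It too passed only at 38, with 3.10 and 7.12 FPKM from 75 and 160 fragments, 2.29 times as much at 38 (1.73 to 3.06). On log2(FPKM + 1) its difference was 0.98, just under 2-fold. It had a longer share of 95.8% and 94.9%. Next were the gene on GL343294.1, with 7.42 and 12.9 FPKM, and one on chromosome 4 (50256592 to 50261390), with 6.08 and 10.5 FPKM and a longer share of 94.3% and 94.9%. Of these 4 genes, the share differed by under 1 point in the ones on chromosomes 1 and 4 and by over 20 points in the other 2.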

How the data were processed

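RNA from 2 whole embryos was sequenced, 1 library per stage, from total RNA with the NuGEN Ovation kit per the labels' protocols. The series text names TopHat and AnoCar2.0 and the submitters' processing notes name Cufflinks, with no version given in the sources used here. The deposited values are FPKM per gene and per transcript, computed by the authors. The deposited transcript tables also give a fraction, which equalled each form's share of the fragments of its locus to within 0.001 points.

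Fragment numbers are FPKM times effective length times a library total. The total was the smallest found that made most loci of 1 transcript with under 100 fragments whole within 0.02 fragments. It did so in 93.1% of 4567 loci at 28 somite pairs and 92.6% of 5065 at 38. Loci under about 9 fragments were seldom listed above 0. A deposited transcript interval was the FPKM plus or minus 2 square roots of it for 53.4% of the forms at 28 and 47.1% at 38, and wider for the rest. An interval of the first kind does not scale with depth, and the wider ones were not examined for this. Shares come from FPKM. Wilson intervals of shares and exact (Clopper-Pearson) intervals of ratios use fragments.

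The genes, lists and alternatives were chosen with earlier results of these data known. Named genes were those with a different lead and the 8 largest differences in share each way, both among genes at 5 FPKM or more in both libraries, the 6 most abundant, the 5 with the largest length difference, the 3 largest gene differences each way among genes with at least 100 fragments in a library, and the 3 on either side of the length threshold. No list of pathways could be applied. The steps were tested on simulated data. The settings of that simulation are not given here, so no error rate for the shares, their differences or the changes of lead is drawn from it. Tools were matplotlib 3.10.9, scipy 1.17.1, pandas 2.3.3, numpy 2.4.6 and Python 3.11.15.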

Additional observations from a re-analysis of the deposited data

How the results depend on the processing

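No paired analysis was possible because there was only 1 library for each stage. Loci with at least 100 fragments in both libraries, and forms with intervals apart, were alternatives chosen after seeing the data. Causes not named here were not tested. Stricter or looser filters change the number of genes counted by construction: 98 genes had 1 FPKM or more in a library, 24 had 20 or more, and 41 had a length difference of 500 bases or more. With these filters the longer form led in 69, 16 and 26 genes at 28 somite pairs, and in 66 and 15 at 38 with the first and second. The lead differed in 14 of 98 genes at 1 FPKM and in 3 of 24 at 20 FPKM, beside 9 of 60 in the main setting. It differed in 6 of 60 genes by the share of fragments. In 1 gene it differed when a form had to hold 60% to lead, and in 0 with the intervals of the forms apart in both libraries. A share differed by 20 points or more in 18 of 98 genes at 1 FPKM, 1 of 24 at 20 FPKM and 5 of 49 at 5 FPKM in both libraries. It did so in 14 of 93 with a length difference of 100 bases or more and 5 of 41 with 500 bases or more. With 100 fragments in both libraries it did so in 5 of 50. No background at these settings is given here, for these counts or for the 2-fold counts below. The median log2 difference of genes was 0 without a filter, since unexpressed genes then enter, and 0.010 with the median of expressed genes set to 0. Genes 2-fold higher at 38 numbered 2 with a pseudocount of 0.1 FPKM, 0 with 5 FPKM, 3 with no filter, 3 at 1 FPKM or more, 2 with equal sums and 2 with the median at 0. Genes 2-fold higher at 28 numbered 1 with a pseudocount of 5 FPKM, 10 with no filter, 10 at 1 FPKM or more, 2 with equal sums and 2 with the median at 0. The order of the stages in the median share of the longer form, 88.9% at 28 and 81.9% at 38, turned with 1 FPKM in a library (82.4% and 85.8%) and with 5 FPKM in both (75.3% and 78.0%). Over the alternatives that kept the share by FPKM, this median was 70.3% to 97.7% at 28 and 68.2% to 85.9% at 38. The median share by fragments was 93.7% at 28 and 91.0% at 38. The median absolute difference in share was 2.84 to 4.74 points.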

Other observations

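The 74 genes under 5 FPKM in both libraries gave shares too, from few fragments. The longer form led in 53 of the 64 with a share at 28 somite pairs and in 50 of the 63 with one at 38, and the median share was 95.9% and 92.9%. Of the 53 genes with a share in both, 11 had a different lead and 17 differed by 20 points or more. No background of genes with smaller length differences under 5 FPKM is given here for these counts. Whether they are particular to large length differences or general at few fragments was not tested.

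In 6 cases the 60 genes lay as neighbours in the list within 500 kb of each other. On scaffold GL343239.1, 2 genes 87864 bases apart both had lower levels at 38 somite pairs, with 30.4 and 14.1 FPKM in the first (1900254 to 1921894) and 25.4 and 14.5 in the second (2009759 to 2013901). The longer form's share was lower at 38 in both, at 99.8% and 89.5% in the first and 99.7% and 94.9% in the second. On scaffold GL343329.1 the neighbour of the exchanged gene, 142846 bases away (1248755 to 1256377), had 19.6 and 19.7 FPKM and a longer share of 19.1% and 18.9%. These pairs were seen in the data and not tested.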
